A study of Mus musculus with 12 samples.

Results

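The respiratory chain of the inner mitochondrial membrane was followed in whole lung through 46 of 47 listed nuclear genes, 43 subunits found in most tissues and 3 muscle isoforms of complex IV (Cox6a2, Cox7a1 and Cox8b). The genes were listed by the complex they belong to, and each was read from 1 Affymetrix probe set, the one with a single gene symbol and the highest mean over all arrays. Cox7b was listed without such a probe set here and has no value. The arrays name 18193 genes in this way. The 12 Affymetrix mouse genome arrays held lung RNA of A/J mice, 3 per group, which the methods describe as lungs of 3 male animals a group. OVA/PM mice received ovalbumin and particulate matter, PBS/PM mice phosphate-buffered saline (PBS) and particulate matter, OVA/PBS mice ovalbumin and PBS, and PBS/PBS mice PBS in place of both. Per the labels the mice were 8 to 10 weeks old, ovalbumin (OVA, an egg protein used as allergen) was given at 0.4 mg/kg into the peritoneum on day 0 and at 30 mg/kg into the trachea on day 14, and particulate matter (PM) as an aspirated 50 µl of a 10 mg/ml suspension. The methods describe the PM as collected from the air of Baltimore. The study's account places the arrays on the fourth day after PM.

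Complex I passes electrons from NADH, and complex II those from succinate, to ubiquinone. Complex III hands them to cytochrome c, and complex IV to oxygen. The proton gradient built along the way drives complex V, the ATP synthase. Most subunits have 1 gene for all tissues, but complex IV exchanges a few: heart and skeletal muscle use Cox6a2, Cox7a1 and Cox8b where other tissues use Cox6a1, Cox7a2 and Cox8a. Cox7a1 and Cox8b are also abundant in brown fat, and a mouse lung taken whole can carry the cardiac muscle that sheathes the pulmonary veins, together with fat and muscle of the mediastinum.

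All values are log2 GCRMA values as deposited, so a difference of 1 is a doubling and levels of different probe sets are not comparable. All 46 members reached the filter level (4.93, the median over every deposited value) on all 12 arrays, so none was tested only through a group in which it was high. The 12 measured markers of lung epithelium and endothelium were also above it on every array, with list means of 13.3 to 13.4 in OVA/PM, 13.6 on each PBS/PM array, 13.3 to 13.5 in OVA/PBS and 13.6 to 13.7 in PBS/PBS lungs. The β-actin 3′ minus 5′ difference, a sign of RNA breakdown, was 0.61 to 0.81 in OVA/PM, 0.48 to 0.90 in PBS/PM, 0.43 to 0.57 in OVA/PBS and 0.41 to 0.50 in PBS/PBS lungs. The groups are named by the sample titles. Ratios the study printed for a few transcripts correspond to these arrays with the names OVA/PBS and PBS/PM exchanged. Against PBS/PBS lungs, 4326 probe sets were called in OVA/PBS and 16 in PBS/PM lungs in the fits below. The study, with other cut-offs, reports more genes changed by PM alone than by OVA alone, which also corresponds to exchanged names. Its remaining measures point both ways, so the question was not settled. Such an exchange would turn each statement on OVA/PBS arrays into one on PBS/PM arrays and the reverse. It would leave OVA/PM against PBS/PBS, and the interaction, as they stand.

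The promoters of the isoforms and of their counterparts are shown for Cox8b and Cox7a1, the muscle isoforms that moved most. Each line runs 5′ to 3′ from 250 bases before to 50 after the gene start, as RefSeq gives it on GRCm38.p6, with capitals for any of 5 searched motifs: CAGCTG (an E-box bound by muscle regulators), AAGGTCA (bound by estrogen-related receptors), GCGCATGC (nuclear respiratory factor NRF1), CCGGAAGT (ETS factors such as GABPA) and TAAAAATA (a MEF2 core), on both strands. No matches overlapped in these windows. Cox8b lies at chr7:140900397-140900696 on the minus strand, Cox8a at chr19:7217567-7217866 on the minus strand, Cox7a1 at chr7:30183921-30184220 on the plus strand and Cox7a2 at chr9:79759804-79760103 on the minus strand.
Cox8b: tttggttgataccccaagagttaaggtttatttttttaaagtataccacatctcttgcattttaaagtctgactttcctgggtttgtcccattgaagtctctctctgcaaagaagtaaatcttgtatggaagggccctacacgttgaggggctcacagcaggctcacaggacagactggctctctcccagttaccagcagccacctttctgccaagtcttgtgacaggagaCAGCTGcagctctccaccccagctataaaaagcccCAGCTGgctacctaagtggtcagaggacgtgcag
Cox8a: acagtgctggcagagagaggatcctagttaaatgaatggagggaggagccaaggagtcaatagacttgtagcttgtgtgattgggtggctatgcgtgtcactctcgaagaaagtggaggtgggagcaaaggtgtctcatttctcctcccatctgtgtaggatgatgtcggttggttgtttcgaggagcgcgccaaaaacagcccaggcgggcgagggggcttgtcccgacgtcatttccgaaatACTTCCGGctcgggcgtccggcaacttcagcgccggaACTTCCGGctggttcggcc
Cox7a1: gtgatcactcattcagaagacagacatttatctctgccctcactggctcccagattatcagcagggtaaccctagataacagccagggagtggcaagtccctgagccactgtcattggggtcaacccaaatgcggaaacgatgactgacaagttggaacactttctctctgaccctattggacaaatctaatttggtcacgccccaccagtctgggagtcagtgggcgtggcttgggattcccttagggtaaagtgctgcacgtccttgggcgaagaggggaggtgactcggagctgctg
Cox7a2: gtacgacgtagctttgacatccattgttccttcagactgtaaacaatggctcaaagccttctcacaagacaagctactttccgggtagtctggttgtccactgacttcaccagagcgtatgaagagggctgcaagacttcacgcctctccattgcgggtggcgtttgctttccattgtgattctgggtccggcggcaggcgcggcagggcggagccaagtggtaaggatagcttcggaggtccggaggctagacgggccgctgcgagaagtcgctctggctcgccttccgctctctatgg
The Cox8b window held CAGCTG 2 times, and that of Cox8a held CCGGAAGT 2 times, both on the reverse strand. Neither Cox7a1 nor Cox7a2 held any of these letter strings. The promoter table matched 34 members, 32 of them ubiquitous and 2 muscle isoforms (Cox7a1 and Cox8b). GCGCATGC was in 5 of the 32 ubiquitous windows (15.6%) against 2.71% of all 32851 windows, and CCGGAAGT in 2 (6.25%) against 3.89%. CAGCTG was in 4 (12.5%) against 16.3%, AAGGTCA in 1 (3.12%) against 4.72%, and TAAAAATA in 0 against 2.72%. A match of letters is a description and not a bound site.

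The 3 muscle isoforms fell in OVA/PM lungs relative to PBS/PBS lungs, whereas the 43 ubiquitous subunits were centred near no change. Cox8b read 9.23, 9.33 and 8.64 in OVA/PM lungs, 10.68, 11.99 and 9.82 in PBS/PM lungs, 9.36, 11.56 and 12.07 in OVA/PBS lungs, and 11.03, 10.99 and 10.67 in PBS/PBS lungs. Every OVA/PM array was below every PBS/PBS and PBS/PM array, and OVA/PBS replicate 1 was close to the OVA/PM arrays and far below the rest of its group. Cox7a1 read 8.96, 9.38 and 9.15 in OVA/PM lungs, 10.43, 11.49 and 10.02 in PBS/PM lungs, 8.77, 10.92 and 11.33 in OVA/PBS lungs, and 10.86, 10.44 and 10.42 in PBS/PBS lungs. The lowest Cox7a1 value of all was that of OVA/PBS replicate 1, and the highest were PBS/PM replicate 2 and OVA/PBS replicate 3. Cox6a2 read 8.65, 9.44 and 8.85 in OVA/PM lungs, 9.70, 10.07 and 9.43 in PBS/PM lungs, 8.90, 9.91 and 10.26 in OVA/PBS lungs, and 10.41, 9.61 and 10.14 in PBS/PBS lungs. Its OVA/PM arrays stayed below the PBS/PBS arrays but met those of PBS/PM. A second Cox6a2 probe set gave 3.84, 5.32 and 5.45 in OVA/PM lungs and 7.47, 6.19 and 6.97 in PBS/PBS lungs, likewise without overlap.

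**Figure D1:**
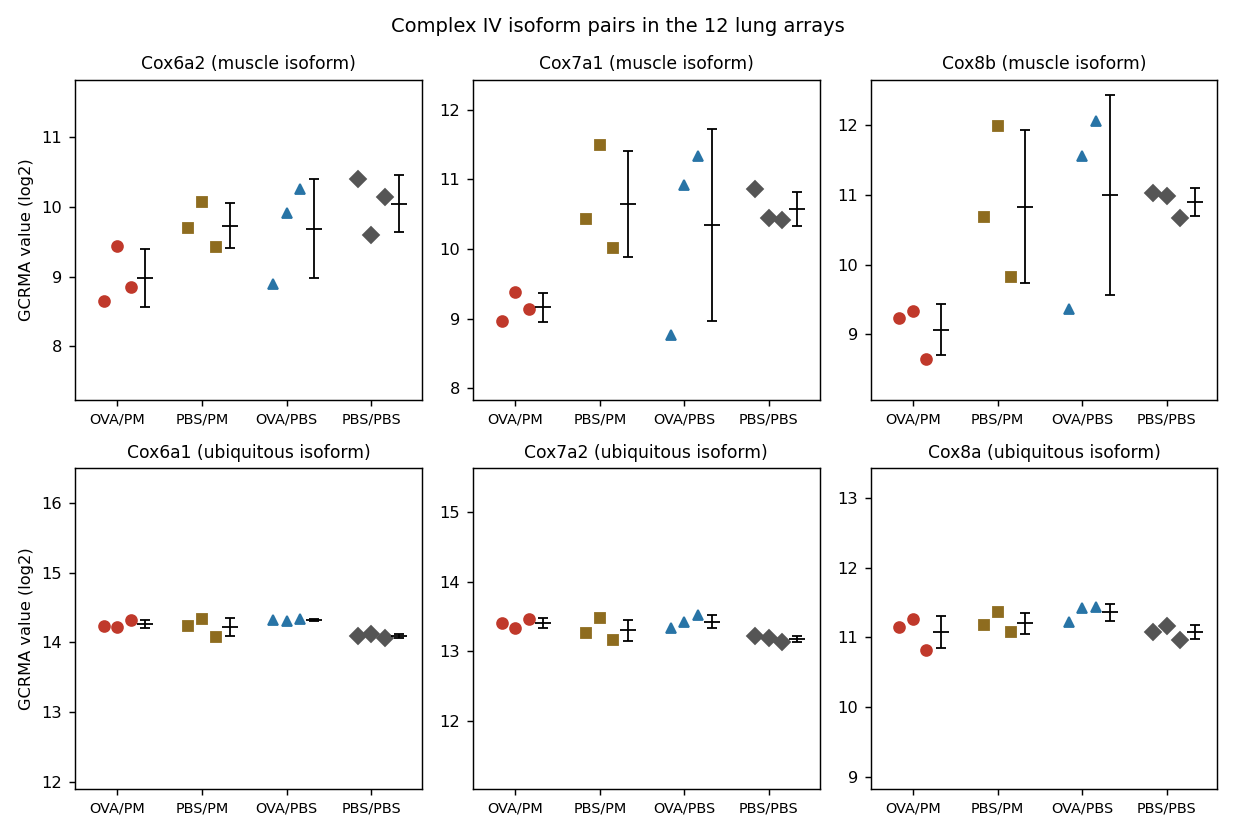
GCRMA values (log2, vertical axis, the same span in each panel) of the muscle isoforms (upper row) and their ubiquitous counterparts (lower row) on the 3 arrays of each group, with the mean and SD beside them as a bar. Cox8b runs between 8.64 and 9.33 in OVA/PM lungs and between 10.67 and 11.03 in PBS/PBS lungs, while Cox8a stays between 10.81 and 11.44 on all arrays.

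In limma fits of the 6 arrays of each pair of groups, with Benjamini-Hochberg adjustment over all probe sets tested, Cox8b was 3.56-fold lower in OVA/PM than in PBS/PBS lungs (log2 fold change -1.83 ± 0.21, SE, adjusted p = 0.00298). Cox7a1 was 2.66-fold lower (log2 fold change -1.41 ± 0.17, adjusted p = 0.00339). Cox6a2 was 2.10-fold lower (log2 fold change -1.07 ± 0.28, adjusted p = 0.0387). Of all 22538 probe sets tested, 10.9% were called lower and 10.9% higher in this comparison. The 3 isoforms are 3 of 46 members called lower, and Cox5a, a matrix-side subunit of complex IV, is the 1 member called higher. Cox7a1 and Cox8b stayed called when each of the 6 arrays was left out in turn. The call of Cox6a2 was lost without OVA/PM replicate 1 or 3 or PBS/PBS replicate 1 or 3, and that of Cox5a without OVA/PM replicate 1 or PBS/PBS replicate 1 or 2. Against PBS/PM lungs, Cox7a1 was 2.80-fold lower in OVA/PM lungs (log2 fold change -1.48 ± 0.36, adjusted p = 0.0446) and the only member called, where 5.77% of probe sets were called lower. That call was lost when the 4 groups were fitted together, and when OVA/PM replicate 1, 2 or 3 or PBS/PM replicate 1 was left out. Against OVA/PBS lungs no member was called in limma, Cox8b having a log2 fold change of -1.93 ± 0.68 (adjusted p = 0.523). Without OVA/PBS replicate 1, Cox7a1 and Cox8b were both called lower in OVA/PM than in OVA/PBS lungs.

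In the fits of 6 arrays none of these isoforms was called in PBS/PM or in OVA/PBS against PBS/PBS lungs. OVA/PBS replicate 1 alone was below every PBS/PBS array in all 3 (Cox8b 9.36, Cox7a1 8.77 and Cox6a2 8.90). In PBS/PM lungs the log2 fold changes were -0.07 for Cox8b (95% interval -1.32 to 1.19), 0.07 for Cox7a1 (-0.84 to 0.98) and -0.32 for Cox6a2 (-0.92 to 0.29). In OVA/PBS lungs they were 0.10 for Cox8b (-1.56 to 1.76), -0.23 for Cox7a1 (-1.83 to 1.36) and -0.36 for Cox6a2 (-1.30 to 0.58). The OVA/PBS intervals of Cox7a1 and Cox6a2 include the change seen in OVA/PM lungs, so these arrays do not tell such a change from none. The interval of Cox8b and all 3 of PBS/PM lungs do not reach it, but this takes the OVA/PM change as exact. In the direct fits above, only Cox7a1 was called, against PBS/PM lungs. The spread within groups was 0.93 for Cox8b, 0.80 for Cox7a1 and 0.49 for Cox6a2 (pooled SD), higher than that of 98.8%, 98.3% and 94.4% of the 11415 genes at the filter level. The interaction of PM and OVA was -1.86 ± 0.94 for Cox8b, -1.25 ± 0.82 for Cox7a1 and -0.39 ± 0.50 for Cox6a2 on the log2 scale, with adjusted p from 0.837 to 0.954 in limma.

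The ubiquitous counterparts had smaller differences between groups, and none was called in the fits of 6 arrays. In OVA/PBS against PBS/PBS lungs Cox6a1 was called with no filter, and Cox6a1 and Cox7a2 with the filter at the 75th percentile. Cox6a1 read 14.24, 14.22 and 14.32 in OVA/PM lungs, 14.24, 14.33 and 14.08 in PBS/PM lungs, 14.31, 14.31 and 14.33 in OVA/PBS lungs, and 14.08, 14.12 and 14.06 in PBS/PBS lungs. Cox7a2 read 13.41, 13.34 and 13.47 in OVA/PM lungs, 13.26, 13.47 and 13.16 in PBS/PM lungs, 13.34, 13.43 and 13.52 in OVA/PBS lungs, and 13.22, 13.19 and 13.13 in PBS/PBS lungs. For both, the OVA/PM and the OVA/PBS arrays lay above the PBS/PBS arrays without overlap, by at most 0.25 on the log2 scale and with no call. Cox8a read 11.15, 11.26 and 10.81 in OVA/PM lungs, 11.17, 11.36 and 11.07 in PBS/PM lungs, 11.22, 11.42 and 11.44 in OVA/PBS lungs, and 11.08, 11.17 and 10.97 in PBS/PBS lungs. A second Cox6a1 probe set correlated with the first at only 0.29 over the arrays. It read 13.20, 13.23 and 12.98 in OVA/PM, 13.31, 13.49 and 13.45 in OVA/PBS, and 13.27, 13.32 and 13.15 in PBS/PBS lungs. Neither exposed group lay above PBS/PBS lungs without overlap in this probe set, and its OVA/PM values leaned lower.

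Set against its counterpart on the same array, each muscle isoform was lower in every OVA/PM lung than in every PBS/PBS lung. The change in the muscle minus ubiquitous difference, whose zero has no meaning but whose change between groups has, was -1.83 for Cox8b minus Cox8a, with group means of -2.01 ± 0.14 in OVA/PM and -0.17 ± 0.12 in PBS/PBS lungs (SD, n = 3 each; two-sided exact permutation test, p = 0.1). It was -1.64 for Cox7a1 minus Cox7a2, with group means of -4.25 ± 0.25 in OVA/PM and -2.60 ± 0.21 in PBS/PBS lungs (exact permutation p = 0.1). For Cox6a2 minus Cox6a1 it was -1.24, with group means of -5.28 ± 0.44 in OVA/PM and -4.04 ± 0.43 in PBS/PBS lungs (exact permutation p = 0.1). A p of 0.1 is the smallest that 3 against 3 arrays can give, and after adjustment over the 9 differences tested it is 0.3. The 6 differences of the PBS/PM and OVA/PBS groups lay between -0.59 and -0.05, and in each the arrays overlapped those of PBS/PBS lungs (exact permutation p from 0.2 to 1).

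In OVA/PM against PBS/PBS lungs 4 of 16 cardiac muscle markers and 4 of 11 skeletal muscle markers tested fell with the isoforms, where 10.9% of all probe sets were called lower. Such calls were not particular to muscle: of 12 lung epithelial and endothelial markers tested, 8 were called lower and 1 higher in the same comparison. The mean of 16 cardiac muscle markers was 10.07 to 10.73 in OVA/PM lungs, 10.84 to 11.72 in PBS/PM lungs, 9.87 to 11.84 in OVA/PBS lungs and 10.85 to 11.07 in PBS/PBS lungs, so the OVA/PM arrays were below the PBS/PBS arrays without overlap. The 4 cardiac markers that fell were the oxygen store myoglobin (Mb, log2 fold change -2.14 ± 0.48), the mitochondrial creatine kinase Ckmt2 (-1.86 ± 0.46), the Z-disc protein Actn2 (-1.33 ± 0.36) and Myoz2 (-1.01 ± 0.21). All 4 are also found in skeletal muscle. Of the other 12, 10 had negative and 2 positive log2 fold changes with no call, the positive ones being the atrial peptide Nppa (1.36 ± 0.85) and Pln (0.30 ± 0.36). The cardiac-defining Myh6, an atrial myosin, read 12.64, 13.05 and 12.86 in OVA/PM lungs and 12.75, 13.51 and 13.40 in PBS/PBS lungs, with overlap. The mean of 14 skeletal muscle markers was 4.18 to 7.42 in OVA/PM lungs, 8.12 to 9.97 in PBS/PM lungs, 8.38 to 9.89 in OVA/PBS lungs and 8.59 to 11.49 in PBS/PBS lungs. All 11 that were tested lay lower in each OVA/PM than in each PBS/PBS array, against 23.2% of all probe sets. The 4 called were Tnnt3, Myot, Atp2a1 and Ckm. Only 4 of the 14 were at or above the filter level on all 12 arrays. A marker with an OVA/PM array under that level was tested only through its PBS/PBS arrays. Its lower reading on that array was then fixed by the filter, so the count of 11 is no evidence of a fall. Among the called this holds for Tnnt3, Myot and Atp2a1. The creatine kinase Ckm, over the filter level on all arrays, had a log2 fold change of -2.86 ± 0.76. Myot read 1.88, 3.85 and 3.37 in OVA/PM lungs, all under that level, and 9.67, 5.84 and 7.80 in PBS/PBS lungs, so the size of its change is not given. On OVA/PM replicate 1 Tnnt3 read 2.78, Atp2a1 4.12 and the fast myosin Myh1 2.89, all under the filter level. In these bulk samples fewer cells of a type and less RNA per cell cannot be told apart.

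With each array's cardiac marker mean as a covariate in a fit of all 4 groups, an alternative chosen after seeing the data, none of the 3 isoforms was called in OVA/PM against PBS/PBS lungs, and their log2 fold changes were -1.02 for Cox8b, -0.68 for Cox7a1 and -0.67 for Cox6a2 (adjusted p from 0.0611 to 0.0640). With the skeletal marker mean as the covariate no member was called. A fit of the 4 groups without a covariate also ended the calls of Cox7a1 and Cox8b in OVA/PM lungs, while Cox5a and Cox6a2 stayed called and Ndufv1 was added. Both marker means were lower on every OVA/PM than on every PBS/PBS array (cardiac 10.07 to 10.73 against 10.85 to 11.07, skeletal 4.18 to 7.42 against 8.59 to 11.49). Each covariate thus carries part of the group contrast, so a loss of calls was partly built in. These fits cannot tell muscle tissue content from exposure, and the part of muscle tissue content in the change was not tested.

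Over the 12 arrays, Cox7a1 followed the cardiac marker mean with Pearson r = 0.936 and Spearman rho = 0.944 (permutation test with 100000 resamples, p = 1e-05, the smallest they can give, and 3e-05, adjusted p = 0.00018 and 0.00054 over 18 relations). Cox8b followed it with r = 0.878 and rho = 0.902 (adjusted permutation p = 0.00099 and 0.00153), and Cox6a2 with r = 0.817 and rho = 0.755 (adjusted permutation p = 0.0054 and 0.0283). Without the 2 arrays farthest from the median of the marker mean (OVA/PBS replicates 1 and 3), r was 0.914 for Cox7a1, 0.873 for Cox8b and 0.759 for Cox6a2, the last with an adjusted permutation p of 0.0646. On deviations from group means r with the cardiac list was 0.943, 0.898 and 0.840 for Cox7a1, Cox8b and Cox6a2, and r with the skeletal list was 0.387, 0.223 and 0.673. Against the skeletal list Cox7a1, Cox8b and Cox6a2 gave r = 0.686, 0.661 and 0.841 over 12 arrays (adjusted permutation p = 0.0391, 0.0469 and 0.00144). All permutation tests of this paragraph shuffled arrays without regard to group, so their p-values also carry differences between groups. The r on deviations from group means has no p. Spearman rho was 0.650, 0.720 and 0.832 for Cox7a1, Cox8b and Cox6a2, and r without the 2 farthest arrays (OVA/PM replicate 1 and PBS/PBS replicate 1) was 0.633, 0.727 and 0.728, with adjusted permutation p of 0.151, 0.0646 and 0.0646. The r values thus stayed of similar size on 10 arrays, and the adjusted p passed the threshold for none of the 3. The counterparts Cox6a1, Cox7a2 and Cox8a gave r = 0.0715, 0.170 and 0.509 against the cardiac list, none with an adjusted permutation p under 0.05, and on deviations from group means 0.358, 0.643 and 0.551. Against the adipocyte and brown fat list, added after seeing the data and adjusted over 24 relations, Cox8b gave r = 0.849 and rho = 0.804 (adjusted permutation p = 0.00222 and 0.0154) and Cox7a1 r = 0.784 and rho = 0.748 (adjusted permutation p = 0.0116 and 0.0278), with 0.892 and 0.850 on deviations from group means. Cox6a2 gave r = 0.539 there (adjusted permutation p = 0.134). Without PBS/PM replicate 2 and OVA/PBS replicate 3, the farthest arrays for this list, r was 0.738 for Cox8b and 0.637 for Cox7a1, and neither adjusted p passed the threshold.

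**Figure D2:**
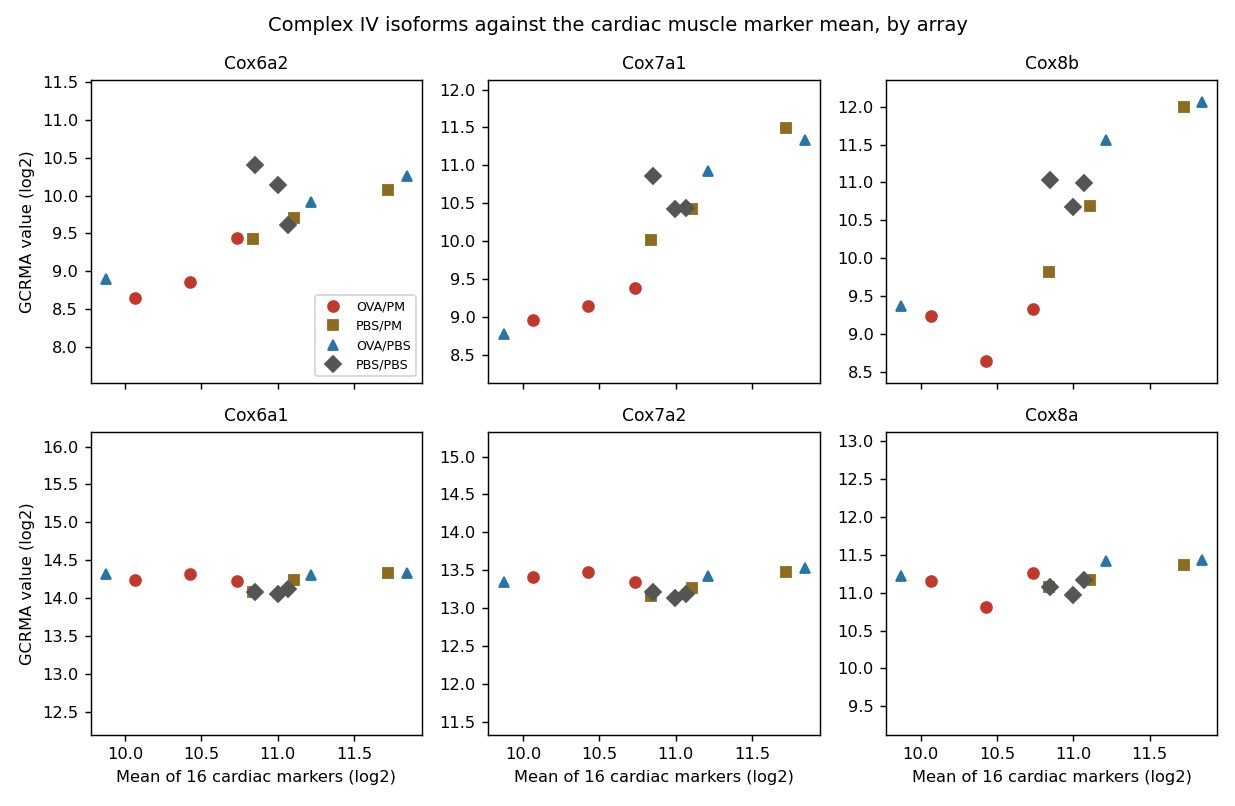
GCRMA value (log2, vertical axis, the same span in each panel) of each complex IV isoform against the mean of 16 cardiac muscle markers (log2, horizontal axis) on the 12 arrays, with groups by colour and shape. Cox7a1 is at 11.33 on OVA/PBS replicate 3, the array with the highest cardiac mean (11.84), and at 8.77 on OVA/PBS replicate 1, the array with the lowest (9.87), while Cox6a1 stays between 14.06 and 14.33.

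Ranked by Pearson r over the 12 arrays among 11414 other genes, a description without a test, the genes nearest to Cox7a1 were Dhrs7c (0.983), Coq8a (0.975), the insulin-responsive glucose carrier Slc2a4 (0.962), the heart fatty acid binding protein Fabp3 (0.959) and Cox8b (0.958). Nearest to Cox8b were the fatty acid oxidation enzyme Acadvl (0.977), Cox7a1 (0.958), the complex I flavoprotein subunit Ndufv1 (0.954), Acadm (0.954) and Slc2a4 (0.953). Nearest to Cox6a2 were Fabp3 (0.976), Cap2 (0.960), Art1 (0.956), Mb (0.946) and Actn2 (0.944). All these values stayed at 0.907 or above on deviations from group means. Ndufv1 was the only ubiquitous member among these genes.

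Across the 43 ubiquitous subunits the arrays differed little. The range over 12 arrays was 0.27 to 0.84 on the log2 scale (median 0.57), against a median of 0.67 over the 11415 genes at the filter level and 1.75 to 3.42 for the muscle isoforms. The pooled SD within groups was 0.07 to 0.25 (median 0.14). In OVA/PM against PBS/PBS lungs the median log2 fold change of the ubiquitous members was -0.02 (all genes 0.01), with 19 positive and 24 negative. Over all 46 members, 7 had their OVA/PM arrays entirely above and 8 entirely below the PBS/PBS arrays, against 21.3% and 23.2% of all probe sets.

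**Figure D3:**
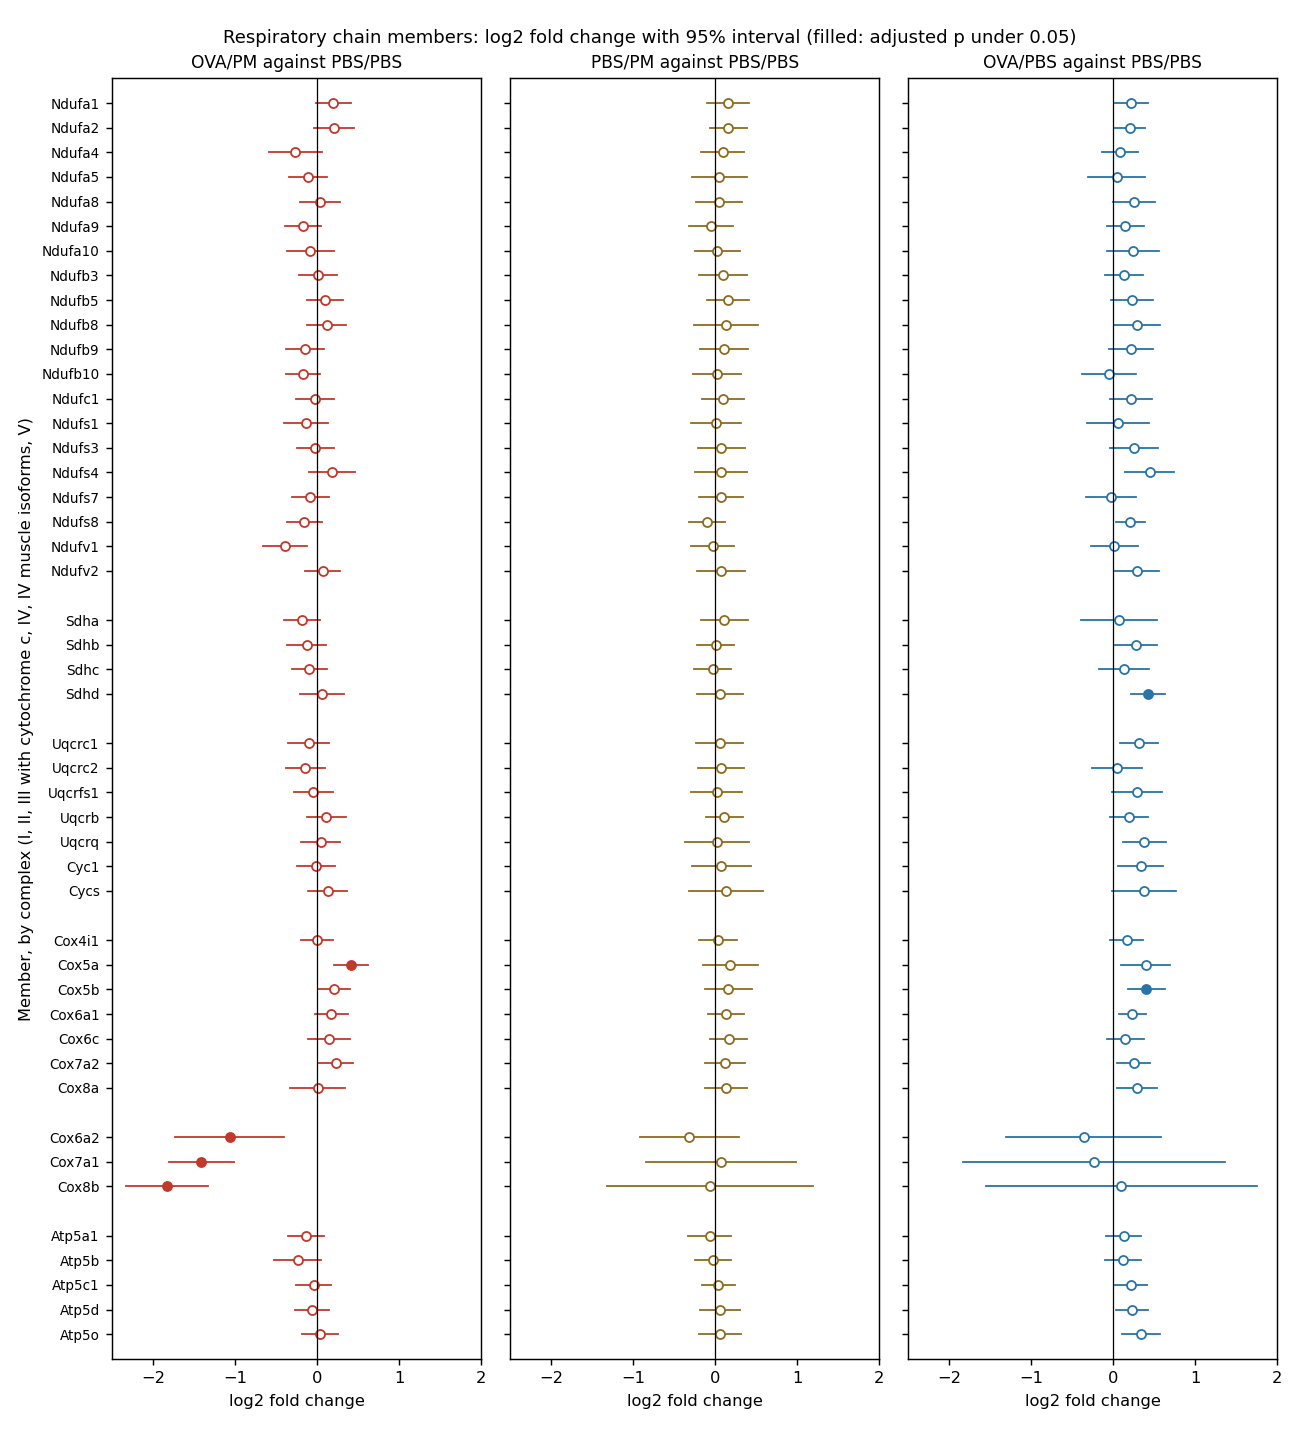
Log2 fold change (point) and 95% interval (line) of the 46 members by complex in OVA/PM, PBS/PM and OVA/PBS against PBS/PBS lungs, on 1 common horizontal axis. Filled points have an adjusted p under 0.05, which holds for Cox5a and the 3 muscle isoforms in OVA/PM lungs, for no member in PBS/PM lungs, and for Sdhd and Cox5b in OVA/PBS lungs.

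Within complex I, Ndufv1 carried the largest change in OVA/PM lungs. It binds the NADH and the flavin at which electrons enter. It read 11.27, 11.20 and 10.98 in OVA/PM lungs, 11.47, 11.69 and 11.38 in PBS/PM lungs, 11.34, 11.63 and 11.69 in OVA/PBS lungs, and 11.63, 11.56 and 11.44 in PBS/PBS lungs. The OVA/PM arrays were below all others, but the log2 fold change of -0.39 ± 0.11 against PBS/PBS lungs missed the threshold (limma, adjusted p = 0.0522). Ndufa4, first assigned to complex I and later found in complex IV, read 12.55, 12.45 and 12.11 in OVA/PM lungs and 12.68, 12.69 and 12.54 in PBS/PBS lungs, which overlapped. Of the 20 complex I members none was called in the 5 pairwise fits or the interaction, and their log2 fold changes in OVA/PM against PBS/PBS lungs ran from -0.39 to 0.20. In OVA/PBS lungs the largest was that of Ndufs4, an accessory subunit needed for assembly, which read 10.35, 10.29 and 10.40 in OVA/PM lungs, 10.22, 10.41 and 10.08 in PBS/PM lungs, 10.50, 10.60 and 10.73 in OVA/PBS lungs, and 10.31, 10.23 and 9.96 in PBS/PBS lungs. Its OVA/PBS arrays were above the PBS/PBS arrays (log2 fold change 0.44 ± 0.12, limma, adjusted p = 0.0524). It was called with the filter at the 75th percentile, after quantile normalization, in the fit of all 4 groups, and with the cardiac or the skeletal covariate. It was not called with no filter, a replicate block or the adipocyte covariate. Another Ndufs4 probe set also lay above without overlap (7.22, 7.34 and 7.55 in OVA/PBS, 7.11, 6.93 and 6.93 in PBS/PBS lungs). A further one overlapped (6.41, 6.43 and 6.48 in OVA/PBS, 6.66, 6.42 and 6.44 in PBS/PBS lungs). In PBS/PM lungs the largest change was that of the accessory subunit Ndufa2, which read 12.94, 12.76 and 12.66 in OVA/PM lungs, 12.68, 12.90 and 12.66 in PBS/PM lungs, 12.74, 12.79 and 12.85 in OVA/PBS lungs, and 12.57, 12.63 and 12.55 in PBS/PBS lungs (log2 fold change 0.16 ± 0.09 in PBS/PM lungs). It was the only member whose PBS/PM arrays all lay above those of PBS/PBS lungs, as did 6.87% of all probe sets.

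Complex II, shared with the citrate cycle, had 1 call. Sdhd, a membrane anchor of succinate dehydrogenase, read 11.06, 11.26 and 10.94 in OVA/PM lungs, 10.97, 11.30 and 10.98 in PBS/PM lungs, 11.40, 11.43 and 11.53 in OVA/PBS lungs, and 11.07, 11.08 and 10.93 in PBS/PBS lungs. It rose in OVA/PBS against PBS/PBS lungs without overlap (log2 fold change 0.42 ± 0.08, limma, adjusted p = 0.0254). Its OVA/PM arrays lay on both sides of the PBS/PBS arrays. Sdha, the flavoprotein that oxidizes succinate, read 11.28, 11.13 and 11.31 in OVA/PM lungs, 11.41, 11.77 and 11.43 in PBS/PM lungs, 11.07, 11.71 and 11.71 in OVA/PBS lungs, and 11.49, 11.44 and 11.35 in PBS/PBS lungs. Its OVA/PM arrays were all below the PBS/PBS arrays, with a log2 fold change of -0.19 ± 0.09 and no call.

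Complex III and cytochrome c had no call. The widest change in OVA/PBS lungs was that of Uqcrq, a small subunit beside cytochrome b, which read 11.67, 11.69 and 11.48 in OVA/PM lungs, 11.56, 11.91 and 11.30 in PBS/PM lungs, 11.83, 11.90 and 12.13 in OVA/PBS lungs, and 11.65, 11.58 and 11.49 in PBS/PBS lungs. Its OVA/PBS arrays were above the PBS/PBS arrays (log2 fold change 0.38 ± 0.11, limma, adjusted p = 0.0538). It was called there after quantile normalization, and together with Uqcrc1 with the filter at the 75th percentile. Cycs, the mobile electron carrier, had the largest range of the ubiquitous members at 0.84, reading 12.96, 13.20 and 13.16 in OVA/PM lungs, 12.94, 13.54 and 12.85 in PBS/PM lungs, 13.08, 13.28 and 13.69 in OVA/PBS lungs, and 12.96, 13.03 and 12.94 in PBS/PBS lungs. Its high arrays are single lungs of the PBS/PM and OVA/PBS groups, which leaves its SE at 0.19 and 0.16 there. Uqcrc2, a core protein, read 13.15, 12.88 and 13.01 in OVA/PM lungs, 13.03, 13.44 and 13.22 in PBS/PM lungs, 12.96, 13.31 and 13.38 in OVA/PBS lungs, and 13.19, 13.16 and 13.14 in PBS/PBS lungs. Its OVA/PM arrays overlapped those of PBS/PBS lungs, at a log2 fold change of -0.15 ± 0.10.

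Among the ubiquitous complex IV subunits, the 2 calls in the fits of 6 arrays fell on the pair Cox5a and Cox5b. Cox5a read 13.61, 13.50 and 13.47 in OVA/PM lungs, 13.12, 13.59 and 13.19 in PBS/PM lungs, 13.32, 13.48 and 13.74 in OVA/PBS lungs, and 13.13, 13.06 and 13.16 in PBS/PBS lungs. It rose in OVA/PM against PBS/PBS lungs with a log2 fold change of 0.41 ± 0.09 (limma, adjusted p = 0.0218), and its 0.40 ± 0.12 in OVA/PBS lungs missed the threshold (adjusted p = 0.0673). Cox5b read 12.89, 12.91 and 12.89 in OVA/PM lungs, 12.85, 13.05 and 12.65 in PBS/PM lungs, 12.98, 13.08 and 13.22 in OVA/PBS lungs, and 12.73, 12.73 and 12.62 in PBS/PBS lungs. It rose in OVA/PBS lungs (log2 fold change 0.40 ± 0.09, adjusted p = 0.0346), while in OVA/PM lungs it was 0.20 ± 0.08 with an adjusted p of 0.126, the arrays again without overlap.

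Complex V had no call. Atp5o, the stalk subunit, read 11.60, 11.76 and 11.73 in OVA/PM lungs, 11.71, 11.90 and 11.56 in PBS/PM lungs, 11.88, 11.98 and 12.15 in OVA/PBS lungs, and 11.70, 11.70 and 11.60 in PBS/PBS lungs. Its OVA/PBS arrays were above the PBS/PBS arrays (log2 fold change 0.34 ± 0.10, limma, adjusted p = 0.0572). It was called there with the filter at the 75th percentile, in the fit of all 4 groups, and with the cardiac or the skeletal covariate. A second Atp5o probe set overlapped, reading 11.51, 11.75 and 12.02 in OVA/PBS and 11.52, 11.53 and 11.59 in PBS/PBS lungs. The catalytic Atp5b read 13.56, 13.86 and 13.52 in OVA/PM lungs, 13.92, 13.93 and 13.73 in PBS/PM lungs, 13.89, 14.02 and 14.10 in OVA/PBS lungs, and 13.94, 13.90 and 13.82 in PBS/PBS lungs, and its OVA/PM arrays overlapped those of PBS/PBS lungs (log2 fold change -0.24 ± 0.12). Its catalytic partner Atp5a1 read 13.03, 13.17 and 13.12 in OVA/PM lungs, 13.27, 13.27 and 12.99 in PBS/PM lungs, 13.26, 13.43 and 13.42 in OVA/PBS lungs, and 13.27, 13.31 and 13.15 in PBS/PBS lungs, with the groups overlapping in PBS/PM against PBS/PBS lungs (log2 fold change -0.07 ± 0.11).

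In OVA/PBS lungs the ubiquitous subunits thus leaned upward as a body although few passed the test. The log2 fold change against PBS/PBS lungs was positive for 41 of 43, with a median of 0.22, against 0.00 over all genes. Sdhd and Cox5b were the 2 members called higher, where 8.68% of all probe sets were. Of the 46, 19 had an unadjusted p under 0.05 in limma, all of them higher. The share of all probe sets was 38.8%, but it counts both directions, so the shares are not directly comparable. In 23 of the 46 the OVA/PBS arrays all lay above the PBS/PBS arrays, against 20.8% of all probe sets. Leaving out single arrays took both calls away in 5 of 6 cases, the exception being the fit without OVA/PBS replicate 2, in which Sdhd stayed. With the filter at the 75th percentile of all values, 9 members were called, a count not set against the share of all probe sets called at that filter.

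In OVA/PM against OVA/PBS lungs, which share the OVA/PBS arrays with that comparison, 42 of 43 ubiquitous members were negative with a median of -0.25 (all genes 0.01). No member was called in limma, where 0.13% of probe sets were. Of the 46, 18 had an unadjusted p under 0.05, all of them lower, against 8.78% of probe sets in either direction. In 21 of the 46 the OVA/PM arrays all lay below the OVA/PBS arrays, against 6.87% of all probe sets. Against PBS/PM lungs the ubiquitous median was -0.07, and 7 of the 46 members had OVA/PM arrays wholly below, against 19.2% of probe sets. In PBS/PM against PBS/PBS lungs the median was 0.07 (all genes 0.03), no member was called in limma where 0.0719% of probe sets were, and none had an unadjusted p under 0.05, against 8.14% of probe sets. The interaction of PM and OVA was negative for all 46 members, with a ubiquitous median of -0.30 (all genes -0.02). No member was called for it in limma, where 0.0264% of probe sets were. An unadjusted p under 0.05 was found for 11, all of them negative, against 6.22% of probe sets in either direction.

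The upward lean was strongest in 3 single lungs of both single-exposure groups. On PBS/PM replicate 2, OVA/PBS replicate 2 and OVA/PBS replicate 3, all 43 ubiquitous members were above their own 12-array mean, by a median of 0.17, 0.19 and 0.26 on the log2 scale. On the other 9 arrays between 2 and 22 of the 43 were above it, and the medians ran from -0.16 to 0.01. Of all genes, 58.3%, 57.2% and 46.4% were above their mean on those 3 arrays. By complex, the median on OVA/PBS replicate 3 was 0.25 for complex I, 0.37 for complex II, 0.38 for complex III and cytochrome c, 0.20 for ubiquitous complex IV and 0.25 for complex V. OVA/PBS replicate 3 held the highest value of 27 of the 43 members and PBS/PM replicate 2 that of 12.

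The same 3 lungs had the highest values of Ucp1, Cidea, Elovl3 and Fabp4, 4 of the 8 measured adipocyte and brown fat markers. Ucp1, the uncoupling protein that makes heat in brown fat, read 8.48, 7.02 and 8.01 in OVA/PM lungs, 9.92, 12.61 and 8.66 in PBS/PM lungs, 8.54, 12.09 and 12.87 in OVA/PBS lungs, and 8.63, 10.95 and 7.89 in PBS/PBS lungs. Cidea, a lipid droplet protein of brown fat, read 8.45, 7.81 and 7.72 in OVA/PM lungs, 9.26, 11.28 and 8.81 in PBS/PM lungs, 8.42, 10.82 and 11.42 in OVA/PBS lungs, and 8.22, 10.15 and 8.44 in PBS/PBS lungs. PBS/PBS replicate 2, next after them in both, had only 13 of 43 ubiquitous members above their mean. The mean of the 8 measured adipocyte and brown fat markers was 6.95 to 7.11 in OVA/PM lungs, 7.32 to 8.45 in PBS/PM lungs, 7.07 to 8.86 in OVA/PBS lungs and 7.06 to 7.90 in PBS/PBS lungs, while leptin (Lep) was under the filter level on all 12 arrays and Dio2 on 11. Adipoq, Retn and Dio2 were not highest in all 3 of these lungs, Adipoq reading 10.93, 10.98 and 11.28 on PBS/PM replicate 2, OVA/PBS replicate 2 and OVA/PBS replicate 3, and 11.18 on PBS/PBS replicate 2. The cardiac marker mean was also highest on these 3 arrays, at 11.72, 11.21 and 11.84 on PBS/PM replicate 2, OVA/PBS replicate 2 and OVA/PBS replicate 3.

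**Figure D4:**
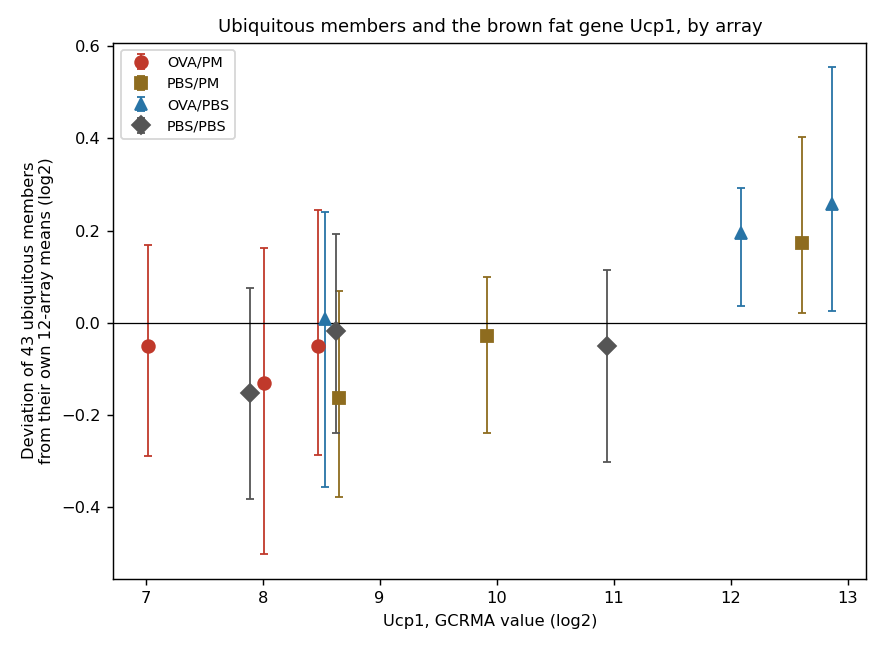
Median (symbol) and lowest to highest (bar) deviation of the 43 ubiquitous members from their own 12-array means (log2, vertical axis) against the Ucp1 value of the array (log2, horizontal axis), with groups by colour and shape. The 3 arrays over 12 in Ucp1 are those with medians of 0.17 to 0.26 and bars wholly above 0, and the other 9 arrays have medians of 0.01 or lower.

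As a description over 12 arrays, the correlation with Ucp1 was positive for all 43 ubiquitous members, with a median r of 0.728 (0.342 to 0.872) against 0.0302 over the 11415 genes, and 38 of the 43 were above 0.5, against 6.16% of genes. It was led by the complex I subunit Ndufb9 (0.872) and by Sdha (0.864), and lowest for Cox5a (0.342), Cox6c (0.400) and Cox6a1 (0.441). On deviations from group means the median was 0.750. The points share the same 12 libraries, so the members are not separate evidence. For the cardiac marker mean the median r over the same members was 0.560, with 29 of 43 above 0.5 (6.72% of genes), and 0.669 on deviations from group means. For the leukocyte marker mean it was 0.110, and -0.382 on deviations from group means. The highest with leukocyte markers over 12 arrays were Cox6a1 (0.572) and Cox5a (0.551), while the muscle isoforms ran from -0.584 to -0.475. Of the leukocyte markers tested, 8 of 17 were called higher in OVA/PM and 8 of 16 in OVA/PBS against PBS/PBS lungs and none lower, where 10.9% and 8.68% of all probe sets were called higher, with S100a8 and S100a9 negative in both. The mean of the list was 10.23 to 10.88 in OVA/PM, 9.17 to 9.52 in PBS/PM, 10.10 to 10.89 in OVA/PBS and 8.71 to 9.79 in PBS/PBS lungs.

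With the adipocyte and brown fat marker mean as a covariate in a fit of all 4 groups, added after seeing the data, no member was called in OVA/PBS against PBS/PBS lungs and the ubiquitous median was 0.12. Without the 3 arrays over 12 in Ucp1, also in a fit of all groups, that median was 0.08 with 31 of 43 positive. These arrays (PBS/PM replicate 2 and OVA/PBS replicates 2 and 3) are those on which all 43 members were above their own mean. Leaving them out was thus bound to lower this median and to make the interaction less negative, so neither shift tests the part of fat. OVA/PBS replicate 1 is then the lone array of its group and is assumed to vary like the other groups. In the same fit the interaction median was -0.04 with 15 of 43 positive. In OVA/PM against PBS/PBS lungs the fit of all 4 groups without a covariate called Cox5a, Cox6a2 and Ndufv1. With the adipocyte covariate the members called there were Cox5a, Cox8b and Cox7a2. Cox6a2 was thus not called with the covariate (log2 fold change -0.90, limma, adjusted p = 0.0717). Cox7a1 was called in neither of these 4-group fits (-0.99 with the covariate, limma, adjusted p = 0.0598). The share of fat in the lung samples as a cause was not tested.

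Beyond the members, the wider machinery was listed in the same way. Of 30 other nuclear respiratory chain genes tested, 0 were called in limma in OVA/PM or in OVA/PBS against PBS/PBS lungs, with medians of 0.03 and 0.19. An unadjusted p under 0.05 was found for 1 (lower) and 11 (all higher), against 37.3% and 38.8% of all probe sets in either direction. Of 25 assembly factors, Cox10, which makes a precursor of the heme A of complex IV, rose in both (log2 fold change 0.67 ± 0.13 in OVA/PM and 0.52 ± 0.12 in OVA/PBS lungs), Surf1 fell in OVA/PM lungs (-0.34 ± 0.09), and Ndufaf3 and Sdhaf1 rose in OVA/PBS lungs (0.42 ± 0.09 and 0.38 ± 0.09). These are 1 of 25 higher and 1 lower in OVA/PM lungs, where 10.9% of all probe sets were called higher and 10.9% lower. In OVA/PBS lungs they are 3 of 25 higher, where 8.68% of all probe sets were. Of 13 regulators of mitochondrial biogenesis none was called in limma in either comparison (4 with an unadjusted p under 0.05 in OVA/PM and 3 in OVA/PBS lungs). Of 16 citrate cycle genes none was called either (4 and 1), and 13 of them were negative in OVA/PM lungs with a median of -0.10.

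Among 12 carriers and porins, the import channel Timm23 rose in OVA/PM and in OVA/PBS lungs (log2 fold change 0.36 ± 0.09 and 0.41 ± 0.08), and Slc25a4, the ADP/ATP carrier of heart and muscle, fell in OVA/PM lungs (-0.56 ± 0.13). Of 12 glycolysis genes, 4 rose and 1 fell in OVA/PM lungs, and 4 rose in OVA/PBS lungs, where 10.9% of all probe sets were called higher and 10.9% lower in OVA/PM lungs and 8.68% higher in OVA/PBS lungs. The glucose carrier Slc2a1 had the largest change in OVA/PM lungs (1.30 ± 0.15), and Pgam1 rose in both (0.62 ± 0.15 in OVA/PM and 0.65 ± 0.11 in OVA/PBS lungs). Pfkm, the muscle phosphofructokinase, was the gene that fell (-1.19 ± 0.30). No gene of these lists was called in PBS/PM against PBS/PBS lungs.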

How the data were processed

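Total RNA of whole lung from 12 mice was hybridised to Affymetrix mouse genome arrays. The deposited values are log2 expression values that the authors made with GCRMA. The submitters' notes also name MAS5, and versions are not given in the sources used here. Array medians ran from 4.84 to 5.03. Of 45101 probe sets, 34958 carried 1 gene symbol, 932 several and 9211 none, and 64 control probe sets were left out. A probe set was tested if it was at or above 4.93, the median over every deposited value, on all 3 arrays of at least 1 group compared. Each pair of groups was fitted on its 6 arrays, and the interaction on all 12, with limma 3.58.1 in R 4.3.3, adjusted by Benjamini-Hochberg over all probe sets tested (threshold 0.05) and tested on simulated data. The methods name SAM, and limma was used in its place. Permutation tests used SciPy 1.17.1 and 100000 resamples, or all 20 splits of 3 against 3 arrays. p-values measure the spread between these samples and are limited in precision by 3 arrays a group.

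The members and lists were chosen with earlier results of these data known. Values on each array are given for the muscle isoforms, their counterparts and, per complex, the member with the largest change in each comparison with PBS/PBS lungs. Any other member named, and the genes named from other lists, which are mostly those called, were chosen after their values were seen. The same replicate numbers were tested as pairs: 3 of 18 same-number pairs of arrays correlated above 0.1 (median -0.05), so the number was not used as a block. No arrays were identical over 66 pairs. Alternatives were the filter, quantile normalization, a replicate block, a fit of all 4 groups, other probe sets of a gene and leaving out each array. Marker means as covariates, and leaving out the 3 arrays over 12 in Ucp1, were added after seeing the data.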

Additional observations from a re-analysis of the deposited data

Results flagged for a closer look

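The bacterial spike transcripts BioB and BioC, added at hybridisation and used in no comparison, read 6.65 and 7.56 (log2, mean of each spike's probe sets) in OVA/PM replicate 3, above the highest PBS/PBS values of 4.60 and 3.91. In the same lung, 10 of the 43 ubiquitous subunits were above their own 12-array mean, against 12 in each of the other OVA/PM lungs. Whether the spikes bear on any member was not tested.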

How the results depend on the processing

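Of the 4 members called in OVA/PM against PBS/PBS lungs, 2 (Cox7a1 and Cox8b) were called with a replicate block, 2 to 4 when single arrays were left out, 1 with the cardiac covariate and 0 with the skeletal covariate. Of the 2 called in OVA/PBS against PBS/PBS lungs, 0 were called with a replicate block and 0 to 1 when single arrays were left out. The number there was 9 with the filter at the 75th percentile, 4 after quantile normalization, 4 in the fit of all 4 groups, 4 with any probe set of the gene, 0 with the adipocyte covariate, 6 with the cardiac and 4 with the skeletal covariate. For OVA/PM against PBS/PM lungs, where 1 was called, it was 0 with no filter, 2 with the filter at the 75th percentile, 2 with a replicate block, 0 in the fit of all 4 groups, 0 with each of the 3 covariates, and 0 to 2 when single arrays were left out. For OVA/PM against OVA/PBS lungs it was 0 to 2 when single arrays were left out. The counts of this paragraph are not set against the share of all probe sets called in each setting. The covariates, and leaving out the 3 arrays over 12 in Ucp1, were chosen after seeing the data.

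Directions in the single-exposure groups were not stable. In PBS/PM against PBS/PBS lungs the log2 fold change of Cox7a1 was -0.36 with the adipocyte covariate, -0.26 with the cardiac covariate, -0.35 without the 3 arrays, and -0.35 to 0.38 when single arrays were left out. That of Cox8b was 0.11 with the skeletal covariate and -0.65 to 0.44 when single arrays were left out. In OVA/PBS against PBS/PBS lungs that of Cox8b was -0.85 with the adipocyte covariate, -1.53 without the 3 arrays, and -0.44 to 0.92 when single arrays were left out. That of Cox7a1 was -0.73 to 0.55 and that of Cox6a2 -0.65 to 0.0375 when single arrays were left out, the upper values without OVA/PBS replicate 1. The change of Cox7a1 minus Cox7a2 in PBS/PM lungs was 0.0055 with the mean of all probe sets and -0.39 to 0.20 when single arrays were left out, and in OVA/PBS lungs -0.93 to 0.26. That of Cox8b minus Cox8a was -0.70 to 0.24 in PBS/PM and -0.68 to 0.56 in OVA/PBS lungs when single arrays were left out. The cause of these changes was not tested.

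Without the 2 farthest arrays, r with the cardiac list was 0.759 for Cox6a2 and -0.0523 for Cox7a2, and r with the skeletal list was 0.728 for Cox6a2, 0.633 for Cox7a1 and 0.727 for Cox8b. With the adipocyte list, added after seeing the data, it was 0.637 for Cox7a1, -0.0131 for Cox7a2, 0.738 for Cox8b and 0.541 for Cox8a. On deviations from group means, r with the skeletal list was 0.0842 for Cox6a1 and 0.0844 for Cox7a2, and r with the leukocyte list was -0.0840 for Cox6a1, -0.400 for Cox7a2 and -0.245 for Cox8a.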
